A study of Mus musculus with 1920 samples.

Results

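The EGF receptors and their feedback inhibitors were followed as 10 genes picked by name from the 55471 genes of the count table. Egfr, Erbb2 and Erbb3 encode receptors, Lrig1, Lrig3, Errfi1, Spry2, Spry4 and Dusp6 encode inhibitors, and Etv4 encodes a transcription factor induced by the pathway. They were measured in single intestinal stem cells (ISCs), sorted as Lgr5high cells from dissociated small-intestinal crypts of 3 young and 4 aged mice and sequenced with a Smart-seq2 method. All mice carried the allele that the labels give as B6.129P2-Lgr5tm1(cre/ERT2)Cle/J, in which GFP and a tamoxifen-dependent Cre are read from the Lgr5 locus. No treatment of these mice is labelled, and how old the sequenced animals were is not stated in the sources used here. The sort rests on this one reporter, which is known to be silent in part of the crypts. With 84 cells below 1000 detected genes removed, 1836 cells were kept, and reads were summed over the cells of each mouse because cells of a mouse are not replicates.

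EGF-family ligands bind Egfr and Erbb3, and Erbb2, which has no known ligand, pairs with both. Erbb3 has little kinase activity of its own and passes the signal through its partner, mainly to PI3K, while Egfr activates the Ras, Raf, Mek and Erk cascade. Active Erk raises the transcription of its own brakes: Dusp6 dephosphorylates Erk, Spry2 and Spry4 dampen the steps towards Raf, and Errfi1 binds the kinase domain of the receptors. Lrig1 and Lrig3 are membrane proteins, of which Lrig1 promotes loss of the receptors from the cell surface. In the crypt, EGF signalling is known to sustain division of ISCs, Paneth cells are known as a source of Egf, and Lrig1 is known as a marker of crypt base cells.

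The sequences shown are promoter windows of 4 members, from 250 bases before to 50 bases after the start site, taken from RefSeq on GRCm38.p6 and written on the strand of the gene. Erbb2, Lrig1 and Errfi1 are given because they differed together with the cell cycle score, and Spry2 because its window held a match to 1 of the searched motifs. Erbb3 differed with that score as well, but windows of Erbb3, Spry4 and Etv4 were not searched. Erbb2 lies at chr11:98412470-98437716, Lrig1 at chr6:94604529-94700158, Errfi1 at chr4:150853919-150868892 and Spry2 at chr14:105891947-105896819 in GRCm38, and all 10 genes are protein coding. The Erbb2 window lies at chr11:98412234-98412533 on the plus strand, the Lrig1 window at chr6:94700096-94700395 on the minus strand, the Errfi1 window at chr4:150853546-150853845 on the plus strand and the Spry2 window at chr14:105896770-105897069 on the minus strand. Capitals mark the motif match.
Erbb2: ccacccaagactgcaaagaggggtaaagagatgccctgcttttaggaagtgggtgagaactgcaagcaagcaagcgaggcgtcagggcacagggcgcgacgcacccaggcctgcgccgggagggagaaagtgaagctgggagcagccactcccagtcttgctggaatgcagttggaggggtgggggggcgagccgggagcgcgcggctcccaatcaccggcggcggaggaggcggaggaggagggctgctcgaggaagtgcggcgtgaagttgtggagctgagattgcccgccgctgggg
Lrig1: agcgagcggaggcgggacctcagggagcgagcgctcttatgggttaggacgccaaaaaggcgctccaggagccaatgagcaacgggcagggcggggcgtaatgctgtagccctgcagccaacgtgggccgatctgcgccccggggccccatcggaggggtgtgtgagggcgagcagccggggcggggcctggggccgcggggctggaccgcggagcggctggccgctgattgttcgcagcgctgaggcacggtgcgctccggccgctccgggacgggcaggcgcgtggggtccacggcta
Errfi1: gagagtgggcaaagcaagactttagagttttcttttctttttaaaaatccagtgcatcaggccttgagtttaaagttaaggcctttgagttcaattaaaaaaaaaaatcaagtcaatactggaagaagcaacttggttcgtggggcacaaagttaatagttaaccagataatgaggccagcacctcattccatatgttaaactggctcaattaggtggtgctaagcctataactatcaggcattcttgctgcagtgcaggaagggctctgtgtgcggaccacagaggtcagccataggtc
Spry2: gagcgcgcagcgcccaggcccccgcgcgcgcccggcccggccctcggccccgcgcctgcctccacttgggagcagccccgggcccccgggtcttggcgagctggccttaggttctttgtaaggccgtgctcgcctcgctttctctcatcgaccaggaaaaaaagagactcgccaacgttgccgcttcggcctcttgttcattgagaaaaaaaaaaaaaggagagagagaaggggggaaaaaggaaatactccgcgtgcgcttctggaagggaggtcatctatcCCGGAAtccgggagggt
The Errfi1 window is the nearer of 2 RefSeq windows to the start of the gene in GENCODE M21.
Motifs were searched on both strands, as the ETS core CCGGAA, the AP-1 site TGANTCA, the CRE TGACGTCA, the cell cycle element TTTGAA, the E2F site TTNGCGC and the CArG box, and none overlapped another in these windows. The windows of Erbb2, Lrig1 and Errfi1 held none of the 6 motifs. The Spry2 window held the ETS core 34 bases after the start site and the Egfr window held it 119 bases before, while 14.9% of all 32851 windows of this length held it. The same share was 7.81% for the AP-1 site, 1.79% for the CRE, 17.9% for the cell cycle element, 6.36% for the E2F site and 1.63% for the CArG box. Windows of Lrig3 and Dusp6 held none of the motifs. The windows differed in base composition, from 42% G or C for Errfi1 to 73% for Lrig1.

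The sorted cells expressed the defining genes of ISCs. In each mouse 93.1% to 99.5% of kept cells had a read of Lgr5 and 98.9% to 100% a read of the epithelial gene Epcam. Ptprc, an immune gene, was found in at most 2.15%, and Col1a1, a stromal gene, in 0.261% of the cells led by ISC markers. Lyz1, known as a Paneth gene, had a read in 83.0% to 91.9% of kept cells by mouse. It was read in 85.8% of cells led by ISC markers and 100% of those led by Paneth markers. Muc2, a goblet gene, was read in 24.9% to 47.0% of kept cells by mouse. Lgr5 was read in 91.85% of cells led by Paneth markers, so a read of Lgr5 or Lyz1 alone did not separate these classes. Kept cells gave 49447464 to 134408884 reads per mouse, with a median of 305492 reads per cell. Each cell was classed by which of 8 marker lists had the highest mean log2(CPM + 1) (CPM, reads of a gene relative to all reads of the cell). ISC markers led in 1532 cells, Paneth markers in 135, enterocyte markers in 94, goblet markers in 52 and tuft markers in 16, and 63 cells lay within 0.5 log2 units of another class. ISC markers led in 71.0% to 88.4% of cells of the aged mice and in 86.3% to 93.0% of those of the young mice, and 3 of the 4 aged mice lay below every young mouse.

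The receptors were expressed in nearly all sorted cells, and most of the Erk-induced members in few. Per exon length, Erbb3 had the highest level, 24.4 ± 5.58 RPKM (CPM per kilobase of exon, SD, n = 7 mice), followed by Erbb2 at 19.5 ± 4.69 and Lrig1 at 16.3 ± 3.86. Each of these 3 stood above the next in 7 of 7 mice. Errfi1 followed at 10.1 ± 2.22 RPKM, Egfr at 5.63 ± 0.771 and Spry2 at 4.65 ± 2.05, and these neighbours were less clearly ordered, as Errfi1 lay above Egfr in 6 of 7 mice and Egfr above Spry2 in 5 of 7.

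Dusp6 at 1.87 ± 0.906 RPKM and Lrig3 at 1.80 ± 0.303 RPKM had no order beyond their spread, with Dusp6 higher in 3 of 7 mice. Etv4 stood at 0.556 ± 0.304 RPKM, below Lrig3 in every mouse. Among the 20928 genes with a length that passed the filter on low counts, the Erbb3 level was at the 90.2nd percentile, the Egfr level at the 66.6th and the Etv4 level at the 25.1st. Spry4 was barely read, with 0 to 16 reads per mouse, and did not pass the filter on low counts, so 9 of the 10 genes were tested. Spry4 had no read in the 160 kept cells of young mouse 1, which allows a share of up to 1.88% of cells with a read there, by counting error only.

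**Figure D1:**
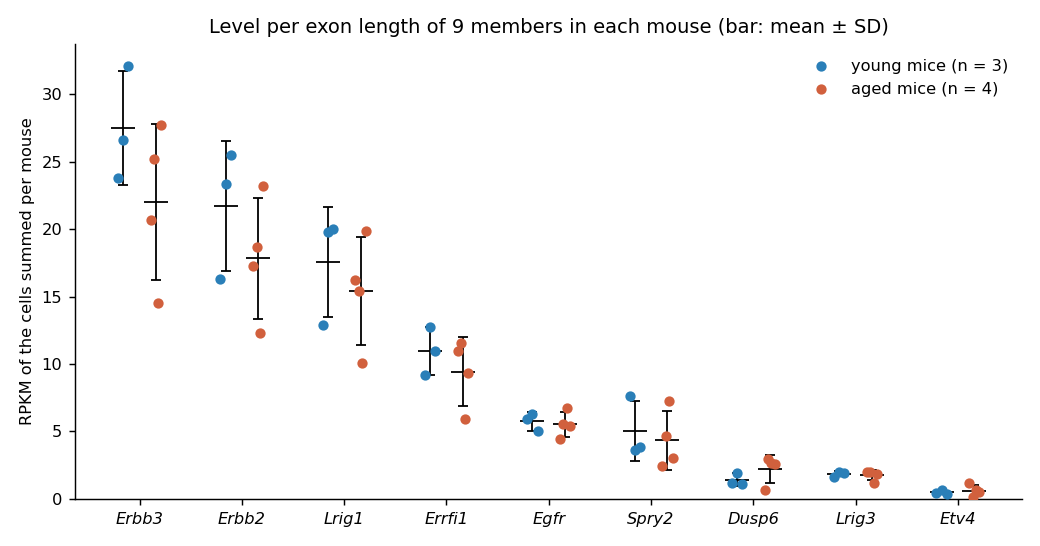
Level of the 9 tested genes in RPKM of the summed cells, a point per mouse (blue, 3 young mice; orange, 4 aged mice), with the mean and SD of each age in black. Erbb3, Erbb2 and Lrig1 stand highest, the ages overlap for every gene, and 1 aged mouse is lowest for Erbb3, Erbb2, Lrig1 and Errfi1.

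The share of cells with a read of a member went largely with its CPM, which also depends on exon length, rather than with its RPKM. Lrig3 and Dusp6, alike in RPKM, had means of 15.1 and 5.86 CPM. After each cell was thinned to 100000 reads, which 1732 cells could give, a read of Erbb3 was found in 95.4% of cells, of Lrig1 in 92.0%, of Erbb2 in 90.8% and of Egfr in 81.7%, as means over the 7 mice. Errfi1 was found in 61.8% of cells, Lrig3 in 49.7% and Spry2 in 31.2%. Dusp6 was found in 18.2% (from 9.64% to 31.8% by mouse), Etv4 in 6.46% and Spry4 in 0.695%. Without thinning, Lrig3 was found in 62.2% and Spry2 in 47.2%, so both shares depended on depth.

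The 10% of cells with the highest CPM of a gene held 24.2% of the Erbb3 signal summed over cells, against 45.4% for Errfi1, 63.8% for Spry2, 80.0% for Dusp6 and 96.8% for Etv4. The Spry2 share ran from 45.9% to 89.7% by mouse and was highest in aged mouse 3. Without thinning, a read was found in 47.2% of cells for Spry2, 23.7% for Dusp6 and 10.2% for Etv4. With so few cells read, as for Etv4, the top 10% must hold nearly all the signal, so that share says little more.

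Between aged and young ISCs no member passed the test. The question was whether the receptors or their brakes moved with age in the sorted compartment. The edgeR quasi-likelihood test with Benjamini-Hochberg adjustment called 0 of 9 members and 0 of all 20957 genes (0.0%), while 1098 genes and 0 members had an unadjusted p under 0.05. DESeq2 called 177 genes (0.845%) and limma voom 2, none of them a member. Sums over all kept cells do not separate the mix of classes from the level per cell. In ISC-led cells alone edgeR called 2 genes and 0 members, with 978 genes and 0 members at an unadjusted p under 0.05.

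Erbb3 had 143, 160 and 193 CPM in the young mice and 124, 151, 87.5 and 167 CPM in aged mice 1 to 4. Aged mouse 3 was lowest and the ages overlapped, and the log2 fold change was -0.32 (SE 0.23, adjusted p = 1.00 in edgeR). Erbb2, its partner, had 85.0, 121 and 133 CPM in young mice and 90.1, 97.1, 64.1 and 121 CPM in aged mice, with a log2 fold change of -0.28 (SE 0.23). Both receptors were again lowest in aged mouse 3 and overlapped between ages. Egfr had 67.1, 71.6 and 56.6 CPM in young and 50.6, 62.8, 76.2 and 61.3 CPM in aged mice, a log2 fold change of -0.05 (SE 0.17), and here aged mouse 3 was highest.

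Among the inhibitors, Lrig1 had 71.9, 111 and 112 CPM in young mice and 90.8, 86.2, 56.4 and 111 CPM in aged mice, a log2 fold change of -0.19 (SE 0.25). Errfi1 had 32.8, 45.5 and 39.2 CPM in young and 39.3, 41.3, 21.1 and 33.4 CPM in aged mice, a log2 fold change of -0.22 (SE 0.24). The lowest value of both genes was again that of aged mouse 3. Spry2 had 15.9, 7.62 and 8.01 CPM in young and 5.09, 9.76, 15.2 and 6.26 CPM in aged mice (log2 fold change -0.21, SE 0.42). Lrig3 had 13.8, 16.8 and 15.9 CPM in young and 16.6, 16.9, 9.88 and 15.6 CPM in aged mice (log2 fold change -0.07, SE 0.23). Neither inhibitor had ages that stood apart.

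Dusp6, the phosphatase of Erk, had 3.64, 6.13 and 3.47 CPM in the young mice and 2.06, 9.31, 8.42 and 8.02 CPM in the aged mice, so 3 aged mice lay above every young mouse and aged mouse 1 below every one. The log2 fold change was 0.65 (SE 0.48, adjusted p = 1.00). Etv4 had 1.28, 1.94 and 1.21 CPM in young and 3.55, 0.530, 1.99 and 1.58 CPM in aged mice (log2 fold change 0.37, SE 0.57), with the highest and lowest values both in aged mice. Over the 9 genes the median log2 fold change was -0.19, beside 0.01 over all genes tested, and 2 of 9 were higher in aged mice, beside 51.7% of all genes. No member had CPM that separated the ages, which 5.62% of all genes did, and none had thinned shares of cells that did, as for 6.69%.

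Some cells of the 2 ages shared the number after LR in the cell name. The labels do not explain this number, which is taken here as a sequencing lane. Aged mouse 1 shared a lane with part of young mouse 2, aged mouse 2 with the other part of young mouse 2, and aged mouse 3 with young mouse 1, while aged mouse 4 and young mouse 3 each had a lane alone. In all 3 shared lanes Erbb2, Erbb3, Lrig1 and Errfi1 were lower in the aged mouse, with log2 ratios of -0.36, -0.40 and -0.41 for Erbb2 and of -0.26, -0.18 and -0.71 for Erbb3. Dusp6 had log2 ratios of -1.57, 0.60 and 1.20 in the lanes of aged mice 1, 2 and 3. The lane pairs share young mouse 2 and carry no test, and a fit with lane as a block, in which both parts of young mouse 2 enter, called 1 gene and 0 members in edgeR. In that fit 3 members had an unadjusted p under 0.05 in edgeR, beside 1743 of 24305 genes, and none passed the adjusted threshold. They were Erbb2 (log2 fold change -0.39, SE 0.10, unadjusted p = 0.00831), Lrig1 (-0.34, SE 0.10, unadjusted p = 0.0161) and Erbb3 (-0.38, SE 0.13, unadjusted p = 0.0282), all in edgeR. Dusp6 had 0.12 (SE 0.57) there. These p-values count the 2 parts of young mouse 2 as separate samples and so do not measure the spread between mice. Aged mouse 4 and young mouse 3, alone in their lanes, add nothing to the age difference of that fit.

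Cells led by Paneth markers held more Dusp6 than cells led by ISC markers of the same mouse. Both classes had at least 5 cells in all 7 mice, and each class was summed per mouse, with mouse as a block. In the 135 Paneth-led cells Dusp6 ranged over mice from 8.59 through a median of 16.0 to 20.2 CPM, and in the ISC-led cells from 0.883 through 4.28 to 6.12 CPM. CPM of members in these comparisons, and in that of age, were scaled by TMM factors, which offset genes that take up much of a library. The values of the classes did not overlap, which held for 4.04% of all genes. Dusp6 rose by 2.09 on the log2 scale (SE 0.37, adjusted p = 0.000917 in edgeR) and was higher in 7 of 7 mice. After thinning, 46.0% of Paneth-led cells and 13.9% of ISC-led cells, each pooled over mice, had a read of Dusp6. The share in ISC-led cells ran from 7.24% to 24.4% by mouse.

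Dusp6 was the only one of the 9 members called in that comparison, in which 11.8% of 20111 genes were called, 5.75% as higher in Paneth-led cells, and 12.9% had 1 direction in every mouse. The receptors had log2 fold changes of -0.10 (SE 0.17) for Egfr, -0.33 (SE 0.17) for Erbb2 and 0.00 (SE 0.15) for Erbb3. Lrig1 had 60.3 to 117 CPM in Paneth-led and 40.6 to 85.9 CPM in ISC-led cells, higher in 5 of 7 mice, and its log2 fold change of 0.32 (SE 0.16, adjusted p = 0.210 in edgeR) passed only in DESeq2 (0.45, adjusted p = 0.0449). In the same comparison 8 of 8 goblet markers and 8 of 12 enterocyte markers were called higher, and 8 of 18 immediate early genes. Their part in the Dusp6 difference was not tested.

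Of these results, the higher Dusp6 held without TMM scaling and those of the other members did not. Paneth cells are known to make large amounts of a few secreted products. The TMM factors ran from 0.627 to 0.871 in Paneth-led and from 1.31 to 1.47 in ISC-led cells. Taken as a share of all reads, the median gene moved from -0.18 to -1.12 on the log2 scale and 60.0% of genes were called, 5.15% of these calls being higher against 48.9% with the scaling. Dusp6 ranged from 5.94 through 10.2 to 13.6 CPM against 1.24 through 5.65 to 8.22 CPM on that scale, was higher in 6 of 7 mice and rose by 1.15 (SE 0.37, adjusted p = 0.0105 in edgeR). The other 8 members were all called lower there. Apart from Etv4, the log2 fold changes ran from -0.62 for Errfi1 to -1.52 for Spry2, with -1.04 for Egfr, -1.28 for Erbb2 and -0.94 for Erbb3. Etv4 had 0 to 11 reads per mouse in Paneth-led cells (adjusted p = 0.0407 in edgeR), and no fold is given for it. Egfr and Erbb3 thus lay close to the median gene on either scale, while their share of all reads was lower in Paneth-led cells.

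**Figure D2:**
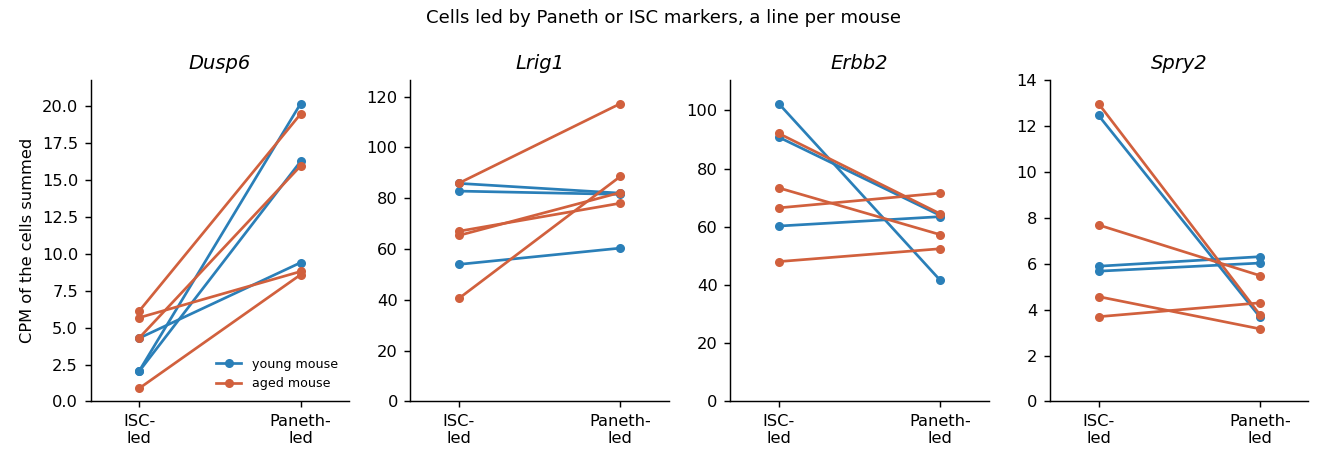
CPM of Dusp6, Lrig1, Erbb2 and Spry2 in the ISC-led and the Paneth-led cells of each mouse, a line per mouse (blue, young; orange, aged). Every line of Dusp6 rises, from 0.883 to 6.12 CPM on the left to 8.59 to 20.2 CPM on the right, while lines of the other genes go both ways on this TMM-scaled axis and go down in at least 6 of 7 mice without the scaling.

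In goblet-led cells Dusp6 had a fitted rise, without a call. In the 5 mice with at least 5 such cells, Dusp6 ranged from 5.37 through 10.2 to 34.1 CPM in goblet-led and from 2.76 through 5.77 to 8.22 CPM in ISC-led cells. It was higher in 4 of 5 mice and the classes overlapped, with a log2 fold change of 1.27 (SE 0.50, adjusted p = 0.234 in edgeR). No member passed, while 521 of 19766 genes did (2.64%), and 3 of 9 members had an unadjusted p under 0.05, beside 16.1% of all genes. DESeq2 called 1 member, Dusp6 (log2 fold change 1.37, adjusted p = 0.0334), among 7.41% of genes. Without TMM scaling 0 members passed, and 58.2% of all calls were higher, against 68.7% with it. Erbb2 and Erbb3 were lower in goblet-led cells in 5 of 5 mice, with log2 fold changes of -0.47 (SE 0.18) and -0.42 (SE 0.17), and neither passed (adjusted p = 0.223 and 0.254 in edgeR). In that comparison 17.3% of all genes went 1 way in every mouse, and 7.03% had classes that did not overlap. After thinning, 57.4% of 47 goblet-led cells, pooled over mice, had a read of Dusp6.

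Because ISC-led cells made up less of 3 aged samples, Dusp6 was also taken in ISC-led cells alone. Without TMM scaling these held 2.88, 6.30 and 2.81 CPM in young mice and 1.24, 8.04, 8.22 and 5.65 CPM in aged mice, and the fit on these cells gave a log2 fold change of 0.61 (SE 0.58, adjusted p = 1.00 in edgeR). Of all Dusp6 reads, 55.8% to 79.7% in aged mice and 70.4% to 90.8% in young mice came from ISC-led cells. For Erbb3 the same shares were 78.6% to 94.8% and 90.7% to 96.5%.

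Cells led by enterocyte markers held less Lrig1 and less Spry2. In 5 mice, Lrig1 ranged from 34.5 through 44.9 to 55.2 CPM in enterocyte-led cells and from 50.3 through 83.7 to 109 CPM in ISC-led cells. It was lower in 5 of 5 mice, although the ranges overlapped, and fell by 0.87 on the log2 scale (SE 0.23, adjusted p = 0.0208 in edgeR). Spry2 ranged from 1.33 through 3.42 to 4.40 CPM against 5.82 through 9.85 to 16.1 CPM. Its classes did not overlap, as for 13.0% of all genes, and it fell by 1.56 (SE 0.43, adjusted p = 0.0271 in edgeR). Lrig1 and Spry2 were 2 of 9 members called among 14.0% of 19494 genes, with 6.19% called lower and 27.8% going 1 way in every mouse. In the same cells 19 of 20 ISC markers were called lower. Without TMM scaling, where the median gene moved by a further -0.25, 4 members were called lower beside 20.1% of genes (31.7% of the calls being higher, against 55.8% with scaling), Egfr (-0.76) and Etv4 joining Lrig1 (-1.11) and Spry2 (-1.80).

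Both calls rested on few cells. Young mouse 1 gave 5 enterocyte-led cells and young mouse 3 gave 8. Leaving out aged mouse 2, aged mouse 4 or young mouse 1 left 0 members called, leaving out aged mouse 3 left 1, and leaving out young mouse 3 gave 5. The fitted fall of Spry2 stayed between 1.3 and 1.71 and that of Lrig1 between 0.70 and 1.06 over these fits. Without young mouse 3, Erbb3 (log2 fold change 0.93, adjusted p = 0.00690) and Erbb2 (0.65, adjusted p = 0.0454) were called higher and Egfr lower (-0.64, adjusted p = 0.0457) in edgeR. Over all 5 mice Erbb3 was higher in 4, from 123 through 205 to 333 CPM against 77.8 through 142 to 189 CPM (log2 fold change 0.61, SE 0.26, adjusted p = 0.135 in edgeR), and the exception was young mouse 3.

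Etv4 was almost unread in enterocyte-led cells, with 0 reads in 3 of the 5 mice and 1 and 3 reads in the others. It did not pass in that comparison (adjusted p = 0.0589 in edgeR), and no fold is given for it. Dusp6 ranged from 1.33 through 5.56 to 23.5 CPM in enterocyte-led and from 2.54 through 5.48 to 7.59 CPM in ISC-led cells. Higher in 3 of 5 mice, Dusp6 was not called (log2 fold change 0.92, SE 0.48, adjusted p = 0.230 in edgeR). After thinning, 44.2% of 77 enterocyte-led cells, pooled over mice, had a read of Dusp6.

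**Figure D3:**
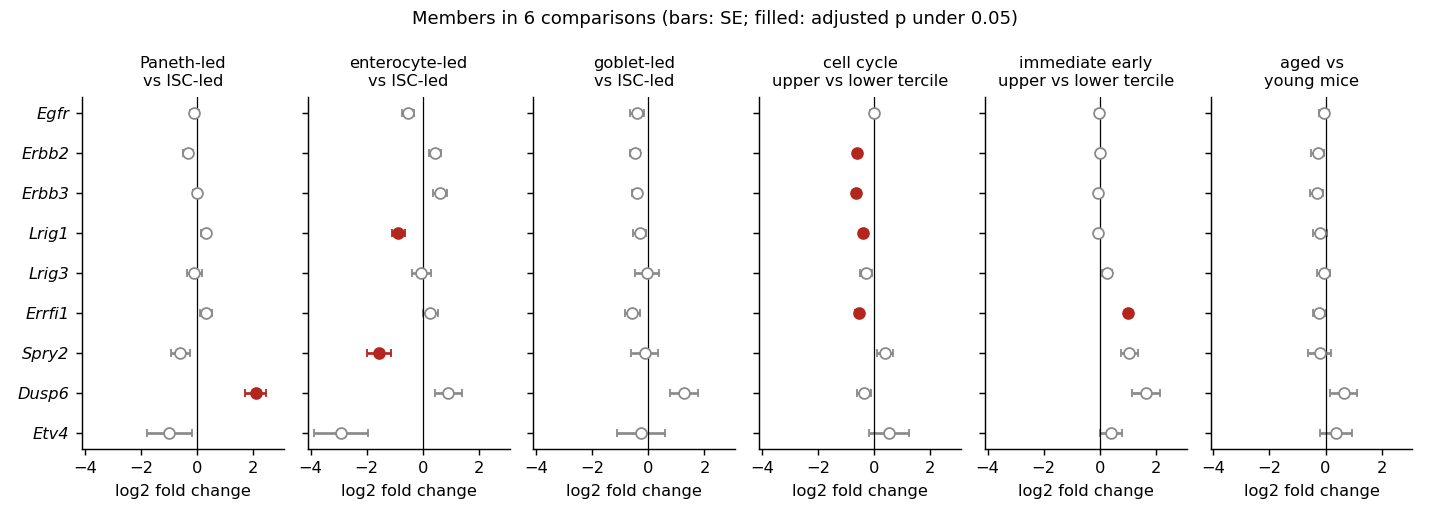
Log2 fold change of the 9 tested genes in 5 comparisons within mice and between aged and young mice, with SE bars, filled red where the edgeR adjusted p was under 0.05. Filled points are Dusp6 in Paneth-led cells, Lrig1 and Spry2 in enterocyte-led cells, Erbb2, Erbb3, Lrig1 and Errfi1 by cell cycle score and Errfi1 by immediate early score, and none is filled for age.

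Among ISC-led cells, those with more cell cycle expression held less Erbb2, Erbb3, Lrig1 and Errfi1. The cells of each mouse were ranked by the mean log2(CPM + 1) of 18 S phase and 20 G2/M genes after regression on the reads and detected genes of the cell, and the upper and lower tercile (512 cells each) were summed per mouse. Erbb2 ranged over the 7 mice from 57.9 through 84.4 to 111 CPM in the upper and from 88.7 through 141 to 183 CPM in the lower tercile. It was lower in the upper tercile in 7 of 7 mice and fell by 0.59 on the log2 scale (SE 0.09, adjusted p = 0.000758 in edgeR).

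Erbb3 ranged from 102 through 120 to 158 CPM in the upper and from 108 through 197 to 267 CPM in the lower tercile. It was lower in 6 of 7 mice, aged mouse 3 being the exception with 114 against 108 CPM, and fell by 0.63 (SE 0.13, adjusted p = 0.00656 in edgeR). Egfr, by contrast, ranged from 51.0 through 72.1 to 110 CPM against 58.6 through 73.1 to 79.0 CPM and was lower in 3 of 7 mice. Its log2 fold change was -0.0046 (SE 0.14, adjusted p = 0.987 in edgeR).

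Among the inhibitors, Lrig1 ranged from 55.3 through 89.0 to 116 CPM in the upper and from 89.2 through 118 to 135 CPM in the lower tercile. It fell by 0.41 (SE 0.09, adjusted p = 0.00959 in edgeR) and was lower in 7 of 7 mice. Errfi1 ranged from 20.7 through 28.0 to 40.1 CPM against 23.5 through 44.8 to 58.4 CPM, fell by 0.55 (SE 0.13, adjusted p = 0.0139 in edgeR) and was also lower in 7 of 7 mice. The ranges of all 4 genes overlapped between terciles, and the differences were seen within mice. Lrig3, Dusp6, Spry2 and Etv4 were not called, with log2 fold changes of -0.30, -0.37, 0.38 and 0.53.

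The 4 called members of 9 stood beside 17.1% of 19103 genes called, 6.29% as lower in the upper tercile, and 17.9% of genes went 1 way in every mouse. The median log2 fold change of the 9 members was -0.37, beside -0.06 over all genes. ISC markers moved the same way, with 11 of 20 called lower and 0 higher, and their mean log2(CPM + 1) was 7.42 in the upper and 7.95 in the lower tercile. What part of the difference goes with the ISC markers was not tested. When the score was not regressed on depth, 0 members were called, and the log2 fold changes were -0.16 for Erbb2, -0.40 for Erbb3, -0.17 for Lrig1 and -0.41 for Errfi1. Leaving out any 1 mouse, or the TMM scaling, left 4 members called, and without the scaling 52.2% of all calls were higher, against 63.1% with it. Without mouse as a block 3 members were called.

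**Figure D4:**
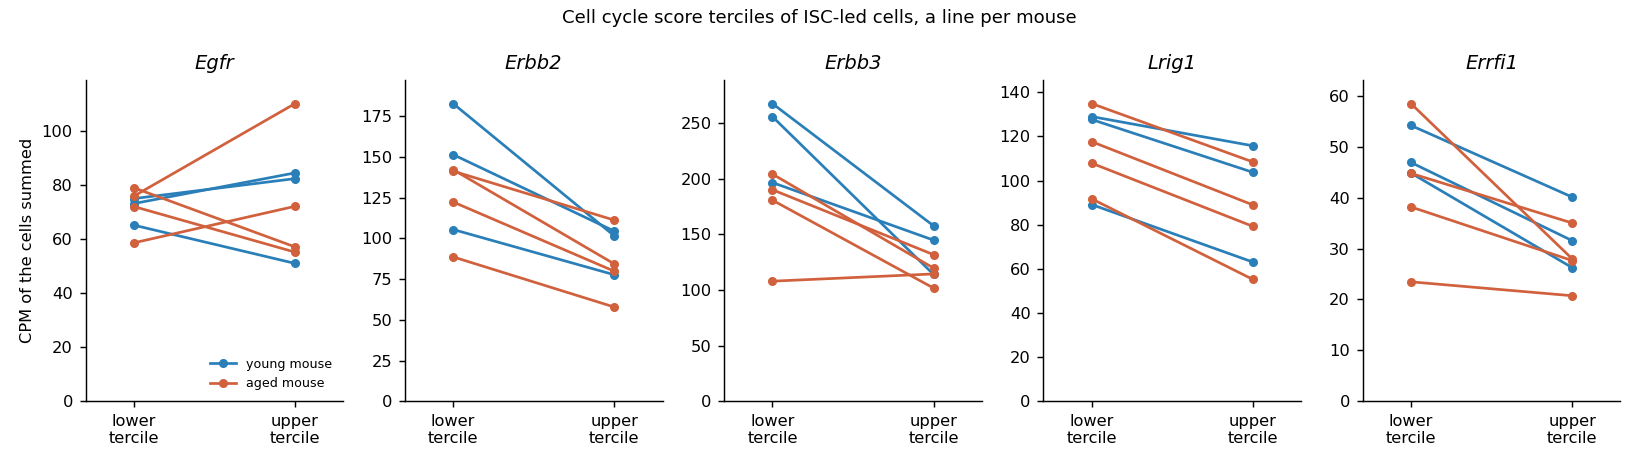
CPM of Egfr, Erbb2, Erbb3, Lrig1 and Errfi1 in the lower and upper tercile of cell cycle score of the ISC-led cells, a line per mouse (blue, young; orange, aged). All lines of Erbb2, Lrig1 and Errfi1 and 6 of 7 of Erbb3 go down, while those of Egfr go both ways.

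Errfi1 rose with immediate early genes in ISC-led cells. Immediate early genes such as Fos, Jun and Egr1 respond within minutes to Erk activity and also to tissue dissociation, so cells were ranked in the same way by 18 of them, of which none is a member. Errfi1 ranged over the 7 mice from 37.7 through 56.6 to 63.5 CPM in the upper and from 18.9 through 25.3 to 35.6 CPM in the lower tercile. The terciles did not overlap, which held for 0.751% of all genes, and Errfi1 was higher in 7 of 7 mice. It rose by 1.01 on the log2 scale (SE 0.11, adjusted p = 0.000852 in edgeR), and it was called whichever mouse was left out and without TMM scaling.

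Spry2 and Dusp6 had fitted differences of the same or larger size with more spread. Dusp6 ranged from 2.35 through 6.57 to 11.0 CPM in the upper and from 0.187 through 3.80 to 4.71 CPM in the lower tercile, and was higher in 6 of 7 mice, all but aged mouse 3. Its log2 fold change was 1.64 (SE 0.49, adjusted p = 0.219 in edgeR). Spry2 ranged from 5.06 through 11.0 to 34.5 CPM against 2.97 through 5.46 to 19.4 CPM and was higher in 6 of 7 mice (log2 fold change 1.05, SE 0.31, adjusted p = 0.199 in edgeR). Both passed in DESeq2 (adjusted p = 0.0108 for Dusp6 and 0.0178 for Spry2), which called 3.57% of genes, and Dusp6 also after thinning (adjusted p = 0.0248 in edgeR).

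The receptors and Lrig1 showed no such difference. Log2 fold changes were -0.02 (SE 0.14) for Egfr, -0.00065 (SE 0.10) for Erbb2, -0.06 (SE 0.07) for Erbb3 and -0.08 (SE 0.09) for Lrig1. The 1 called member of 9 stood beside 186 of 19184 genes called (0.97%, and 0.907% as higher) and 5.07% that went 1 way in every mouse, and 3 of 9 members had an unadjusted p under 0.05, beside 10.7% of all genes. ISC markers were split evenly, with 10 higher and 10 lower, and their mean log2(CPM + 1) was 7.61 and 7.62. How far the immediate early score reads dissociation of the crypts was not tested.

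**Figure D5:**
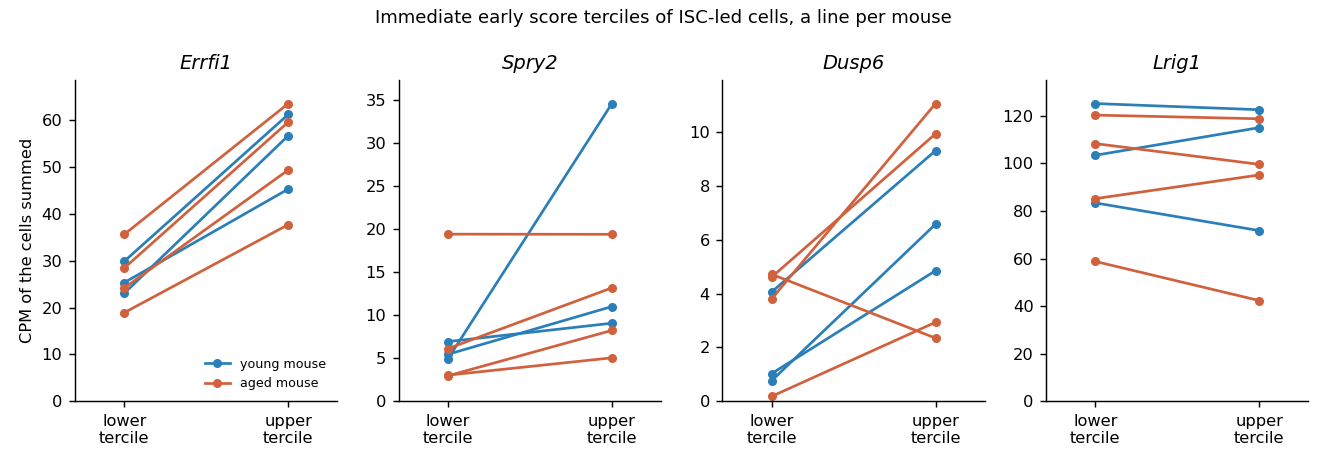
CPM of Errfi1, Spry2, Dusp6 and Lrig1 in the lower and upper tercile of immediate early score of the ISC-led cells, a line per mouse (blue, young; orange, aged). All 7 lines of Errfi1 and 6 of 7 of Spry2 and Dusp6 rise, and those of Lrig1 go both ways.

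None of these differences within mice was shown to depend on age. The difference of each contrast between aged and young mice called 0 of 9 members in all 5 comparisons, beside 0.00513% of genes in enterocyte-led cells, 0.00506% in goblet-led cells and 0.0% in the others. Of the young mice, only mice 2 and 3 had enough goblet-led cells (5 and 12) to enter, and only mice 1 and 3 enough enterocyte-led cells (5 and 8). For Errfi1 by immediate early score the ages differed by -0.08 on the log2 scale (SE 0.23), and for Erbb2 by cell cycle score by 0.03 (SE 0.18). The smallest unadjusted p of a member was that of Lrig1 in goblet-led cells (0.95, SE 0.41, p = 0.0367, adjusted p = 1 in edgeR).

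The other genes of the pathway, 99 on 8 lists, gave the surroundings of the members, and 93 of them were tested for age. None was called between aged and young mice, and 62 of 93 lay on the lower side in aged mice (median log2 fold change -0.11). Of all genes, 51.7% lay on the higher side (median 0.01). The 6 with an unadjusted p under 0.05 in edgeR, none past the adjusted threshold, were Dusp9, Etv5, Rhbdf1, Rhbdl2, Fgfr1 and Met. Of all 20957 genes, 5.24% had such a p. Dusp9, a phosphatase of Erk, had 0.895, 1.27 and 1.37 CPM in young and 0.343, 0.249, 0.294 and 0.397 CPM in aged mice. Its ages did not overlap, as for 5.62% of all genes (log2 fold change -1.87, SE 0.43, adjusted p = 0.380 in edgeR), at no more than 1.37 CPM in any mouse.

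Etv5, a paralogue of Etv4, had 2.07, 3.48 and 3.24 CPM in young and 6.57, 4.47, 6.12 and 12.1 CPM in aged mice (log2 fold change 1.32, SE 0.39, adjusted p = 0.694 in edgeR). All aged mice lay above all young mice, and Etv5, like Dusp9, was named here for its small p. In goblet-led cells Etv5 was called higher (log2 fold change 2.79, SE 0.37, adjusted p = 0.000717), from 18.1 through 31.9 to 66.0 CPM against 2.46 through 4.44 to 10.5 CPM, and goblet markers were higher in aged mice for 8 of 8 genes, none called. The part of the goblet-led cells in the age difference of Etv5 was not tested. Rhbdf1, which helps release ligands, was lower in aged mice (log2 fold change -0.98, SE 0.30) and Rhbdl2, a rhomboid protease, higher (1.19, SE 0.37), without a call.

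Met, a receptor kinase, had a log2 fold change of -0.38 (SE 0.16) and Fgfr1 of -2.06 (SE 0.80) at no more than 0.956 CPM in any mouse. Others with small p were Epha2 (-0.73), Rhbdf2 (-0.57), Igf1r (-0.47), Lrig2 (-0.50) and Etv1 (-2.50), with adjusted p from 0.964 to 0.999 in edgeR.

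Of the ligands, 7 of 11 were tested in Paneth-led cells, and 1 was called higher and 1 lower. Egf was higher in Paneth-led cells in 7 of 7 mice, from 4.41 through 9.16 to 16.3 CPM against 0.255 through 1.11 to 1.46 CPM (log2 fold change 3.65, SE 0.44, adjusted p = 1.11e-05 in edgeR). These levels did not overlap. Of the 92 pathway genes tested there, 4 were called higher and 5 lower, where 11.8% of all genes were called, among them Ets1 (4.70) and Dusp5 (1.84) higher and Myc (-0.87) and Epha4 (-0.88) lower. Dusp5 encodes a further phosphatase of Erk. Without TMM scaling Egf stayed called (2.71) and Dusp5 did not (0.89, adjusted p = 0.0770 in edgeR).

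In the cells with high immediate early score, 5 of 92 pathway genes were called, all higher, beside 0.97% of all genes. Hbegf, a ligand of Egfr, had 88.2 through 216 to 319 CPM in the upper and 7.90 through 10.6 to 20.7 CPM in the lower tercile (log2 fold change 4.04, SE 0.26, adjusted p = 3.19e-05 in edgeR). Its terciles did not overlap. Areg, another ligand, ranged from 3.44 to 26.4 CPM against 0 to 1.69 CPM (log2 fold change 4.81, adjusted p = 0.00746), and Spry1, a further Sprouty gene, from 6.01 to 27.1 CPM against 2.68 to 8.15 CPM (log2 fold change 1.62, adjusted p = 0.0411). Fosl1 (4.96) ranged from 1.61 to 8.75 CPM against 0.0622 to 0.363 CPM. Dusp5 (3.38) ranged from 2.35 to 20.6 CPM against 0 to 3.17 CPM and completed the 5. The folds of Areg, Fosl1 and Dusp5 thus rest on low values in the lower tercile. All 5 were higher in 7 of 7 mice, where 5.07% of all genes went 1 way in every mouse.

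In enterocyte-led cells 6 of 92 pathway genes were called higher and 6 lower, where 14.0% of all genes were called, led by Ksr1 (log2 fold change 2.36), a scaffold of the Erk cascade, Epha2 (1.52) and Map2k2 (0.77, not called without TMM scaling) on the high side and Myc (-1.32), Igf1r (-1.09) and Ets2 (-0.91) on the low side. In goblet-led cells, where 2.64% of all genes were called, Etv5 and Fgfr2 (1.19) were called higher and Hbegf (-1.86) and Pik3r1 (-0.66) lower. By cell cycle score 2 of 92 were called higher and 10 lower, where 17.1% of all genes were called, among them Cblb (-0.92), a ligase that marks receptors for degradation, Insr (-0.61), Rhbdf2 (-1.22), Rasa2 (-0.52), Mcl1 (-0.59) and Ets2 (-0.43), each lower in 7 of 7 mice.

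Across single cells the members were only loosely tied to each other once reads and detected genes were regressed out. Correlations are Pearson r of log2(CPM + 1) after regression on reads and detected genes, computed within each mouse over its 160 to 376 kept cells and averaged over the mice. They are descriptions, since cells of a mouse share their library and depth. Erbb2 and Erbb3, the partner receptors, had the highest r of the 45 pairs, 0.26 (0.15 to 0.35 by mouse). Erbb3 with Lrig1 had 0.16, Erbb2 with Lrig1 0.16 and Egfr with Lrig1 0.11, and no other pair exceeded 0.1. In ISC-led cells alone these were 0.23 for Erbb2 with Erbb3, 0.14 for Erbb3 with Lrig1, 0.14 for Erbb2 with Lrig1 and 0.056 for Egfr with Lrig1, and Dusp6 with Etv4 had 0.10. The lowest of the pairs without Spry4 was Erbb2 with Dusp6 at -0.08. Without the regression r was 0.48 for Erbb2 with Erbb3, 0.35 for Erbb3 with Lrig1, 0.36 for Erbb2 with Lrig1 and 0.30 for Egfr with Lrig1.

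The genes most like each member were named from 11494 genes with a read in at least 20% of cells of every mouse. Lrig1 was nearest to Slc12a2 (r = 0.39), Lgr5 (0.38) and Rgmb (0.37), 3 genes of the ISC marker list. Errfi1 was nearest to Atf3 (0.21), Hbegf (0.21) and Neat1 (0.20), of which Atf3 was in the immediate early list. Dusp6 was nearest to Tff3 (0.26), Guca2b (0.24) and Muc2 (0.24), and Tff3 and Muc2 are goblet genes. Among ISC-led cells alone Dusp6 was instead nearest to Fos (0.18), Hbegf (0.16) and Rhob (0.16).

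Erbb2 was nearest to Myo7b (0.31), Malrd1 (0.30) and Rnf43 (0.29), and Erbb3 to Plcb3 (0.32), Malrd1 (0.32) and Chp1 (0.30), so both receptors shared Malrd1. For Egfr (Gm11451, Ptbp1 and Gm8979, up to 0.19), Spry2 (Rps25, Sod1 and Gm8566, up to 0.22), Lrig3 (Bex1, Mgam and Rin2, up to 0.17) and Etv4 (Ncl, Gins1 and Rgcc, up to 0.11) the nearest genes were only weakly alike. Spry4 had no read in 1 mouse and was left out of this ranking.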

How the data were processed

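Small-intestinal Lgr5high cells of 3 young and 4 aged mice were sequenced as single cells. The authors deposited a table of raw read counts per gene and cell, and HISAT2, HTSeq and the GRCm38 build are named in the submitters' processing notes, with versions and strand setting not given in the sources used here. Without molecular identifiers, counts are reads and precision covers counting error only. All cell columns were matched to a mouse by name. The members and gene lists were chosen with earlier results of these data known. Members were named by rule, as all 10, and pathway genes as those with the smallest p, up to 12 for age, of which 1 is not reported here, and 6 for each other comparison. Cells below 1000 detected genes were dropped and the others summed per mouse, giving 49447464 to 134408884 reads. Symbols, exon lengths and coordinates came from GENCODE M21. Sums were tested with the quasi-likelihood test of edgeR 4.0.16 (TMM, filterByExpr, Benjamini-Hochberg adjustment, threshold 0.05) in R 4.3.3, after the code was tested on simulated data. Contrasts within mice had mouse as a block and needed 5 cells of each class, and SE is the log2 fold change divided by the root of F. DESeq2 1.42.0 and limma 3.58.1 (voom), thinning, other filters, scalings and blocks, and leaving out each mouse were alternatives. The labels name separate mice, and p-values measure the spread between them, except in the fit with lane as a block.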

Additional observations from a re-analysis of the deposited data

Results flagged for a closer look

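Of 65 groups of 4 to 7 mice checked for a mouse far from the others, 1 held such a value, where chance gives about 1 in 20. The log2 ratio of Dusp6, log2(CPM + 1), between the upper and lower tercile of immediate early score was -0.77 in aged mouse 3, while Dusp6 was higher in the upper tercile of the other 6 mice. Without that mouse the log2 fold change was 2.02 (adjusted p = 0.0531 in edgeR), against 1.64 with it, so the call did not change.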

How the results depend on the processing

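Under the alternatives, 64 values of the main results kept their size, while 8 counts of calls became larger, 5 smaller and 2 other values moved. DESeq2 called 2 members in Paneth-led, 1 in goblet-led and 3 by immediate early score, thinned cells gave 5 in enterocyte-led cells and 2 by immediate early score, and the cell cycle score without regression on depth gave 0. Without TMM scaling, an alternative added after the data were seen, 9 members were called in Paneth-led and 4 in enterocyte-led cells. Leaving out 1 mouse gave 0 to 5 members in enterocyte-led cells. The median share of cells with a read over the members was 55.7% after thinning, and 16 pairs exceeded an r of 0.1 without regression. Beyond the fits on other reads or scalings, the cause was not tested. Mouse numbers did not pair the mice (r of -0.11, 0.19 and -0.23 for same-numbered mice), and the fit with the replicate block called 2 genes and 0 members, with a Dusp6 log2 fold change of 0.37.

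Directions turned for 55 values of single members, which were not called in the report's own fit. Log2 fold changes without TMM scaling were -0.94 for Erbb3, -0.62 for Errfi1 and -0.63 for Lrig1 in Paneth-led cells. With DESeq2 they were 0.056 for Lrig3 and 0.039 for Egfr in Paneth-led, 0.047 and 0.043 for Lrig3 in enterocyte-led and goblet-led cells and 0.0035 for Erbb2 by immediate early score. After thinning they were -0.18 for Etv4 and 0.0098 for Egfr with age, -0.0076 for Erbb3 in Paneth-led cells, 0.053 and 0.19 for Lrig3 in enterocyte-led and goblet-led cells, and 0.0098 for Erbb3, 0.022 for Lrig1 and 0.096 for Erbb2 by immediate early score. For age they were 0.0037 for Egfr in ISC-led cells, -0.21 for Etv4 and 0.25 for Spry2 with cells weighted equally, and -0.080 for Etv4 with lane as a block. Erbb3 had -0.062 in Paneth-led cells without the filter. Without the mouse block Lrig3 had 0.022 in Paneth-led and 0.33 in goblet-led cells, Etv4 0.33 in goblet-led cells, and Egfr 0.028 by cell cycle and 0.033 by immediate early score. Scores without regression on depth gave 0.13 for Dusp6, 0.21 for Egfr and -0.65 for Spry2 by cell cycle, and -0.13 for Etv4, 0.0047 for Erbb3, 0.18 for Egfr and 0.21 for Erbb2 by immediate early genes.

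Leaving out 1 mouse, the age differences ran from -0.11 to 0.68 for Etv4, from -0.15 to 0.086 for Lrig3, from -0.15 to 0.036 for Egfr and from -0.57 to 0.22 for Spry2. In Paneth-led cells Erbb3 ran from -0.10 to 0.068 and Lrig3 from -0.19 to 0.016, and in enterocyte-led cells Lrig3 from -0.16 to 0.22. In goblet-led cells Etv4 ran from -0.68 to 0.31, Lrig3 from -0.39 to 0.31 and Spry2 from -0.43 to 0.20. Egfr ran from -0.094 to 0.069 by cell cycle score and from -0.11 to 0.099 by immediate early score, and Erbb2 from -0.049 to 0.063 by immediate early score. The small classes and the low reads of Etv4 and Spry4 limit what these fits can show.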
